A study of Sesamum indicum with 6 samples.

Results

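The genes described here are the sesame (Sesamum indicum) genes named for SIEVE ELEMENT OCCLUSION (SEO) and PHLOEM PROTEIN 2 (PP2), 11 of the 20661 genes that carry a product name in the authors' deposited table. They were chosen by product name alone, without regard to case, and comprise 6 SEO genes and 5 PP2 genes. The pair of families was proposed with the difference between these same pools already known, so the members' differences, and their calls in a fit across all genes, are given as a description. They are not independent evidence of a difference, no p-value is printed for a member, and no conclusion rests on them. All 11 had enough reads to pass the filter on low counts.

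RNA was taken from young leaves of 17-day-old seedlings of recombinant inbred lines, each line a near-fixed mixture of its parents' genomes. SiCD_B seedlings were homozygous for the SiCD-B allele on linkage group 8, which carries the mutant kan1, and SiCD_A seedlings were homozygous for the SiCD-A allele, which carries wild-type KAN1. No treatment is named for either group, and 3 pools of RNA were sequenced per group. Each pool mixed RNA of 9 seedlings out of the 19 of its group, so the 27 places in a group's pools exceed its seedlings and pools of a group share plants. The p-values given here therefore measure only the spread between overlapping pools, and other parental differences between the 19 plants of each group cannot be told apart from the allele.

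Phloem carries sugars and signals from leaves through sieve tubes, files of living cells without nuclei that are kept alive by companion cells beside them. SEO genes encode the filament proteins (P-proteins) of sieve elements, which in legumes form bodies that plug a sieve tube after wounding. PP2 genes encode lectins, sugar-binding proteins first found in cucurbit phloem sap, where they are made in companion cells and pass into sieve elements. Related PP2-like genes are also known outside the phloem, and RNA of whole leaves does not show which cells the reads came from. In bulk RNA, fewer phloem cells and less RNA per phloem cell cannot be told apart.

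The pools held 56123250 to 82165322 counted reads. KAN1 itself (LOC105167765) had 53.8, 52.9 and 56.5 CPM (counts scaled to a library of 1000000 reads) in the SiCD_B pools, against 22.2, 20.7 and 25.2 CPM in the SiCD_A pools. A transcript level does not check the mutant allele, whose sequence the labels do not give. Marker lists of other cell types also differed between the groups. Summed mitotic cyclins of dividing cells had 530 to 591 CPM in SiCD_B and 393 to 417 CPM in SiCD_A pools. Of them, 10 of 14 genes were higher and 0 lower by edgeR's test (adjusted p below 0.05 over all genes). Among all tested genes, 16.5% were higher and 14.1% lower by that test. Epidermis markers summed to 837 to 921 CPM in SiCD_B and 576 to 712 CPM in SiCD_A pools, with 4 of 9 higher and 1 lower. The 3 guard cell markers summed to 12.3 to 14.6 CPM in SiCD_B and 22.0 to 23.7 CPM in SiCD_A pools, with 1 higher and 2 lower. Mesophyll markers overlapped, at 21944 to 25833 CPM in SiCD_B and 21764 to 32804 CPM in SiCD_A pools, with 1 of 20 higher and 3 lower. SiCD_A pools 1 and 2, at 32804 and 31558 CPM, lay above every SiCD_B pool, and SiCD_A pool 3 lay below them. Median log2 fold changes (SiCD_B over SiCD_A) were 0.53 for dividing cells, 0.34 for epidermis, -0.75 for guard cells and -0.32 for mesophyll markers. Markers of root or stem tissue summed to under 1 CPM in every pool, and no gene of these lists was at 0 in all pools. The part of these shifts in the members' levels was not tested.

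All 6 SEO genes were lower in SiCD_B leaves, by 15.8% to 31.4%, and in each case every SiCD_B pool lay below every SiCD_A pool. The gene with the most reads was LOC105156657, a SIEVE ELEMENT OCCLUSION B gene on linkage group 2 (coding segment 18050864 to 18051208, plus strand). It had 81.6, 70.8 and 73.0 CPM in the SiCD_B pools, against 106, 96.5 and 88.0 CPM in the SiCD_A pools. No pool overlapped with the other group, and the lowest SiCD_A pool was 7.89% above the highest SiCD_B pool. Its log2 fold change was -0.37 (SE 0.08), a level 22.4% lower in SiCD_B.

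The widest separation among the SEO genes was that of LOC105176450, another SIEVE ELEMENT OCCLUSION B gene on linkage group 2 (1143003 to 1143158, minus strand). Its values were 19.2, 15.9 and 17.3 CPM in SiCD_B pools and 26.1, 25.9 and 24.3 CPM in SiCD_A pools. Every SiCD_A pool was at least 26.7% above every SiCD_B pool. The means were 17.5 ± 1.64 CPM in SiCD_B and 25.5 ± 1.00 CPM in SiCD_A (SD, n = 3 pools each), and the log2 fold change was -0.54 (SE 0.07).

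Next to it lies LOC105176465 (1155702 to 1155935, minus strand), also of type B. It gave 23.2, 19.97 and 20.9 CPM in the SiCD_B pools and 26.97, 27.4 and 26.4 CPM in the SiCD_A pools, which lay close together. The lowest SiCD_A pool was 14.0% above the highest SiCD_B pool. The log2 fold change was -0.33 (SE 0.06).

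LOC105178604, the type B gene on linkage group 16 (845924 to 846055, plus strand), had 11.7, 8.77 and 9.01 CPM in SiCD_B and 14.7, 12.5 and 12.6 CPM in SiCD_A pools. In each group pool 1 was the high one, and the groups were still separate by 7.39% of the highest SiCD_B value. Its log2 fold change was -0.44 (SE 0.12), with the largest error of the SEO genes.

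The smallest gap was at LOC105168700, the type B gene on linkage group 8 (14099906 to 14100109, minus strand), with 17.1, 15.2 and 14.5 CPM in SiCD_B pools and 20.4, 18.5 and 17.3 CPM in SiCD_A pools. SiCD_A pool 3 exceeded SiCD_B pool 1 by only 1.34%. The log2 fold change was -0.27 (SE 0.08).

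LOC105156782 is the one SIEVE ELEMENT OCCLUSION C gene and lies on linkage group 2 (18044765 to 18044932, plus strand). Its pools had 13.4, 11.5 and 13.2 CPM in SiCD_B and 15.1, 14.6 and 15.5 CPM in SiCD_A, without overlap. This was the smallest difference of the family, with a log2 fold change of -0.25 (SE 0.08).

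**Figure D1:**
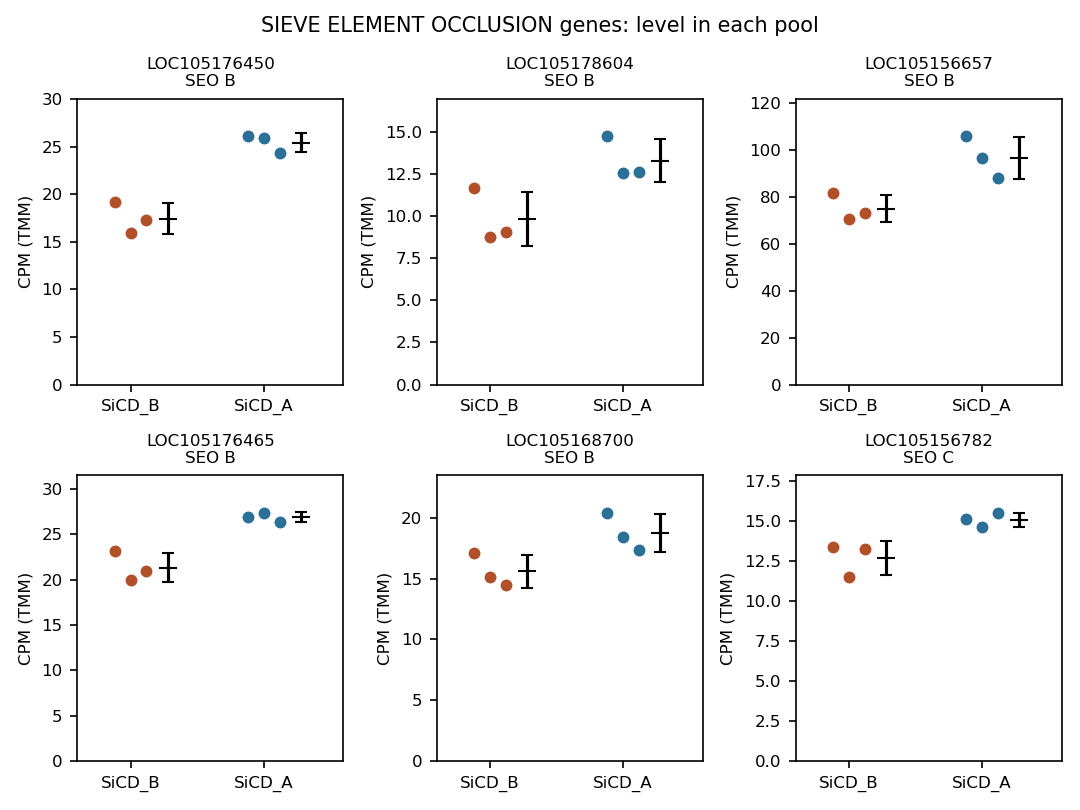
Level of each SEO gene in each pool, in CPM scaled with TMM factors, with SiCD_B pools in orange and SiCD_A pools in blue; points are pools 1 to 3 from left to right, and the bar beside them is the mean ± SD (n = 3). In every panel the SiCD_B points lie below the SiCD_A points, with the narrowest gap, 1.34%, at LOC105168700.

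Of the 6 SEO genes, 6 were called lower in edgeR's quasi-likelihood test across all genes (adjusted p below 0.05). Of all 21009 tested genes, 14.1% were called lower. Pools did not overlap for 6 of 6 SEO genes, beside 22.6% of all tested genes that were lower in SiCD_B without overlap. The median log2 fold change of the family was -0.35, against 0.01 over all tested genes and -0.34 over the 2971 genes called lower, and 12.0% of tested genes had a fold change as low as the family's median or lower. The family's median thus lay close to that of the genes called lower, a set that includes these 6 genes. Since the family was picked with this contrast known, nothing is read from these counts. When the first SiCD_A pool was left out, 3 SEO genes were called, beside 9.96% of all genes called lower. The number was also 3 when SiCD_B pool 2 (8.44% of all genes) or SiCD_B pool 3 (9.58%) was left out. LOC105176450, LOC105156657 and LOC105176465 kept their calls whichever single pool was left out.

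Added up, the SEO genes gave 166, 142 and 148 CPM in the SiCD_B pools, against 209, 195 and 184 CPM in the SiCD_A pools. The sum averaged 152 ± 12.5 CPM in SiCD_B and 196 ± 12.6 CPM in SiCD_A (SD, n = 3 pools each), which is 22.5% lower in SiCD_B. LOC105156657 supplied 49.1% to 49.8% of the family's reads in SiCD_B pools and 47.8% to 50.6% in SiCD_A pools, so its share overlapped between the groups. The share of LOC105176450 was 11.2% to 11.7% in SiCD_B and 12.5% to 13.3% in SiCD_A pools, without overlap. That of LOC105168700 went the other way, also without overlap, at 9.80% to 10.7% in SiCD_B and 9.40% to 9.75% in SiCD_A pools. These are shares of reads, not scaled by gene length, and do not rank the genes by transcript number.

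**Figure D2:**
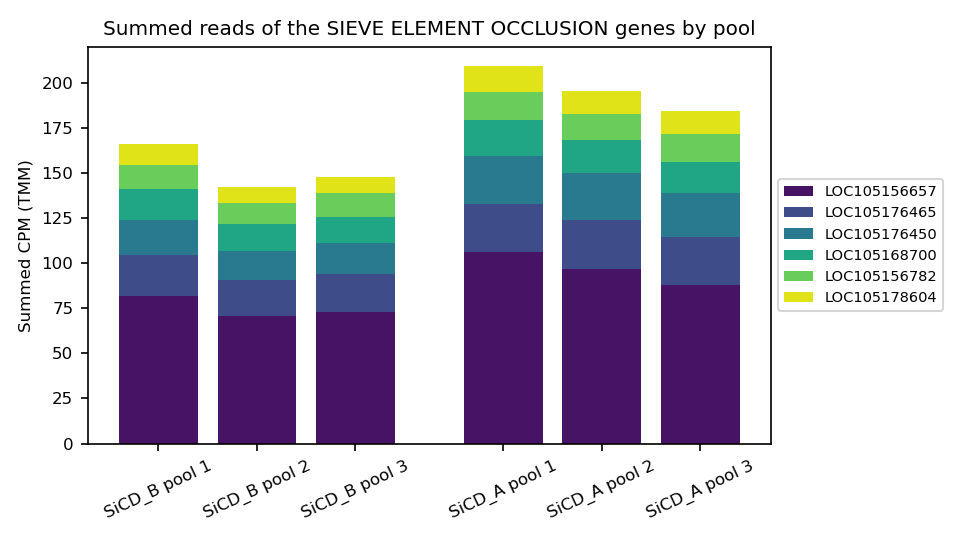
Summed level of the 6 SEO genes in each pool, in CPM, with SiCD_B pools on the left and SiCD_A pools on the right; each colour is 1 gene. The sum was 142 to 166 CPM in SiCD_B and 184 to 209 CPM in SiCD_A pools, and LOC105156657 made up the lowest and largest block in each.

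The pools of a group were also ordered much alike from one SEO gene to the next. In SiCD_B, pool 1 was the highest of the 3 pools for 6 of 6 genes, and pool 2 was the lowest for 5 of 6. In SiCD_A, pool 1 was the highest for 4 of 6 and pool 3, the shallowest library, the lowest for 4 of 6. The coefficient of variation between pools was 7.55% to 16.4% in SiCD_B and 1.88% to 9.41% in SiCD_A, and it was higher in SiCD_B for 5 of 6 genes. Pools share plants and each value carries its library's scaling, so these orders are a description of 6 libraries.

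PP2 genes were less uniform. The lectin gene with the most reads, LOC105175867 (PHLOEM PROTEIN 2-LIKE A1-like, linkage group 12, 5981645 to 5981881, plus strand), had 18.3, 12.8 and 14.2 CPM in SiCD_B pools, against 21.6, 21.1 and 20.4 CPM in SiCD_A pools. The SiCD_B pools were spread widely, with a coefficient of variation of 19.0%, and the SiCD_A pools narrowly, at 2.85%. Its log2 fold change was -0.48 (SE 0.12). The lowest SiCD_A pool was 11.3% above the highest SiCD_B pool. Its call was lost when SiCD_A pool 1 or 2 was left out, and likewise for SiCD_B pool 2 or 3.

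LOC105175864 (PHLOEM PROTEIN 2-LIKE A9, linkage group 12, 5979436 to 5979483, plus strand) is its neighbour and had far fewer reads, 155, 175 and 145 counts in SiCD_B pools and 222, 225 and 157 counts in SiCD_A pools. Scaled for depth these were 2.00, 2.09 and 1.90 CPM in SiCD_B and 3.13, 3.08 and 2.79 CPM in SiCD_A. The groups were clearly apart, by 33.1% of the highest SiCD_B value, and the log2 fold change of -0.59 (SE 0.13) was the lowest of the 11 genes. It kept its call whichever single pool was left out.

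A second gene of that type, LOC105167232 (PHLOEM PROTEIN 2-LIKE A9-like, linkage group 8, 91894 to 91971, minus strand), had 0.891, 0.910 and 0.825 CPM in SiCD_B and 1.17, 1.41 and 1.12 CPM in SiCD_A pools. The pools did not overlap. It had 63 to 103 counts per pool, its log2 fold change was -0.50 (SE 0.20), and it was not called.

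The A10 genes had the smallest differences of the PP2 genes. LOC105159090 (PHLOEM PROTEIN 2-LIKE A10, linkage group 3, 21471553 to 21472860, minus strand) had 6.36, 6.99 and 6.70 CPM in SiCD_B pools and 7.07, 7.71 and 7.99 CPM in SiCD_A pools. The groups were separated by 1.11%, and the log2 fold change was -0.18 (SE 0.09), not called. LOC105177842, the other A10 gene (linkage group 15, 4313165 to 4314397, plus strand), had 12.8, 10.1 and 10.6 CPM in SiCD_B and 11.5, 11.2 and 11.1 CPM in SiCD_A pools. Here SiCD_B pool 1 was above every SiCD_A pool while the other SiCD_B pools were below them. Its log2 fold change was -0.01 (SE 0.10), not called, and turned to 0.037 with library size as the only scaling.

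**Figure D3:**
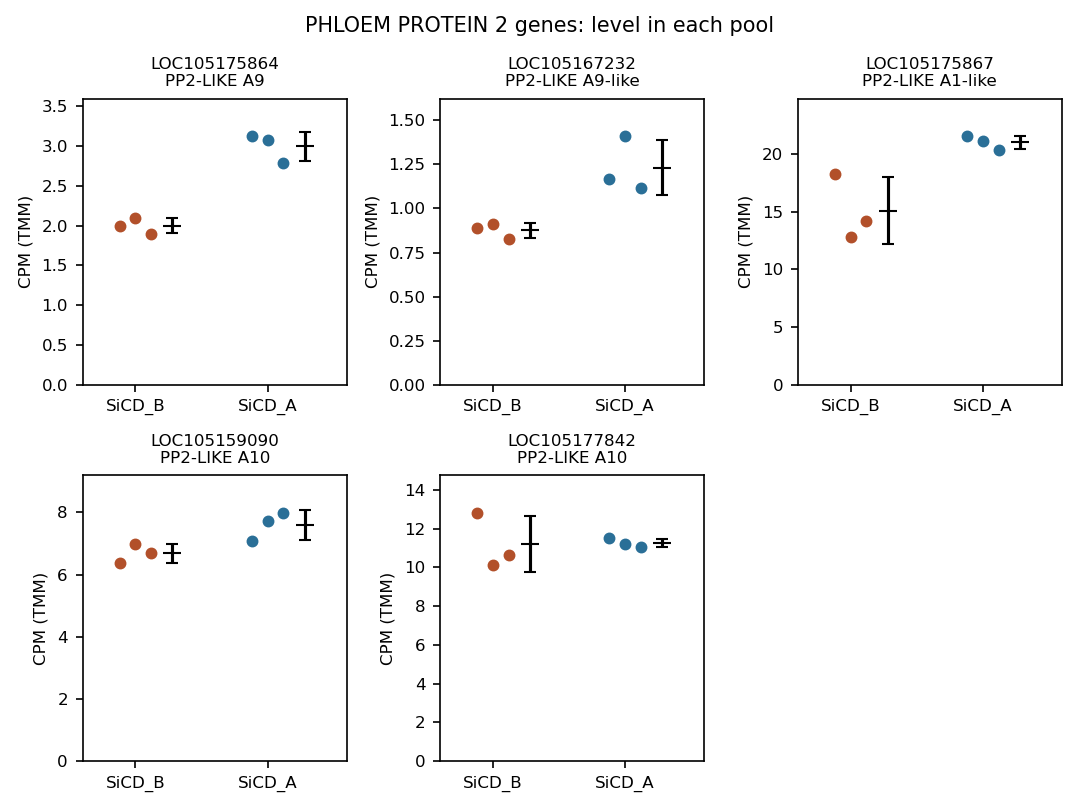
Level of each PP2 gene in each pool, in CPM scaled with TMM factors, with SiCD_B pools in orange and SiCD_A pools in blue; points are pools 1 to 3 from left to right, and the bar beside them is the mean ± SD (n = 3). The groups are apart for the A9, A9-like and A1-like genes, separated by 1.11% for LOC105159090 and overlapping for LOC105177842.

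In all, 2 of the 5 PP2 genes were called lower and 0 higher, beside 14.1% and 16.5% of all tested genes. Pools did not overlap for 4 of the 5, beside 22.6% of all tested genes that were lower in SiCD_B without overlap. Their median log2 fold change was -0.48. The summed level was 40.4, 32.9 and 34.3 CPM in SiCD_B, against 44.4, 44.5 and 43.4 CPM in SiCD_A pools. Over the A1-like, A9 and A9-like genes alone it was 17.98 ± 2.85 CPM in SiCD_B and 25.3 ± 0.846 CPM in SiCD_A, and over the A10 genes 17.9 ± 1.14 CPM in SiCD_B and 18.9 ± 0.248 CPM in SiCD_A (SD, n = 3 pools each). This split of the family was made after the values had been seen, and the difference between its parts was not tested.

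Over both families 8 genes were called lower and 0 higher. All 11 fold changes lay below 0, with the exception of LOC105177842 under library size alone or when SiCD_A pool 1, SiCD_B pool 2 or SiCD_B pool 3 was left out. The authors' deposited table gives 8 of the 11 an adjusted p below 0.05, and they are the same 8 genes, in a table where 16.1% of all genes were lower at that level. The deposited log2 fold changes of the authors' table differed from those given here by at most 0.0115.

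**Figure D4:**
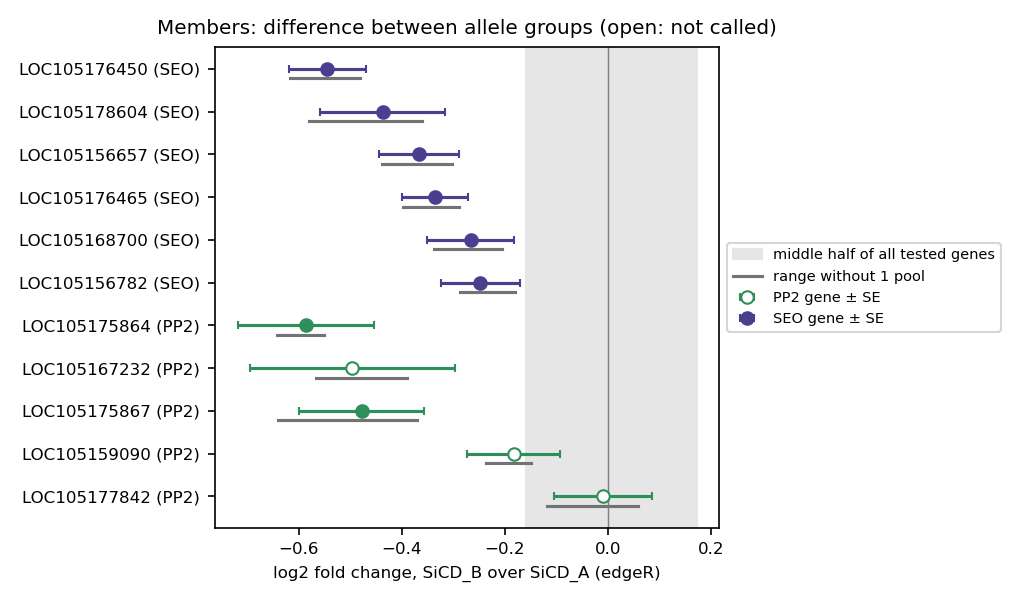
Log2 fold change of each member, SiCD_B over SiCD_A, with its SE; filled points were called and open ones were not. The grey lines give the range when 1 pool is left out and the shaded band the range between the quartiles of all tested genes (-0.16 to 0.17). The 6 SEO genes run from -0.54 to -0.25 and the PP2 genes from -0.59 to -0.01.

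Position was not used in the choice of genes. Both families held tandem neighbours. LOC105176450 and LOC105176465 are adjacent on linkage group 2, with 0 genes between them in the order of the RefSeq table and 12.5 kb between their deposited coding segments. LOC105156782 and LOC105156657 are adjacent further along the same linkage group, 5.93 kb apart, so a type C gene lies beside a type B gene. The PP2 genes LOC105175864 and LOC105175867 are adjacent on linkage group 12, 2.16 kb apart. All 6 genes of these pairs were called lower, beside 14.1% of all tested genes. LOC105156782 lost its call in 5 of the 6 fits that left out 1 pool and LOC105175867 in 4 of 6. Reads that near-identical copies share cannot be assigned by counts, and how alike these copies are was not analysed here.

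LOC105168700 and LOC105167232 are on linkage group 8, the one that carries the SiCD alleles, 9.04 Mb and 4.97 Mb from the KAN1 coding segment. The other 9 members lie on other linkage groups. The libraries were made without strand, and the annotated spans of LOC105176450, LOC105175864, LOC105175867 and LOC105159090 each overlap 1 other gene. Spans are whole genes, and overlap of exons was not examined. Reads from a shared stretch cannot be assigned to 1 gene, and whether the counts hold or drop them was not checked. Of these overlapping genes, IMPL1 phosphatase LOC105175866, which overlaps LOC105175867, was itself called lower, with a log2 fold change of -0.28 (adjusted p = 0.00594). The long non-coding RNA LOC105175865, which overlaps LOC105175864, had -0.44 (adjusted p = 0.0926). The gene overlapping LOC105176450, LOC105176457, had 0.11 (adjusted p = 0.271). LOC105159089, which overlaps LOC105159090, was not among the tested genes.

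Among the 2 nearest genes on each side of every member, 28 that are no members were tested. Of these, 6 were called lower and 4 higher, beside 14.1% and 16.5% of all tested genes, and their median log2 fold change was -0.11. LOC105178604 had 2 called neighbours on one side, LOC105178497 at -0.45 (adjusted p = 0.00246) and LOC105178498 at -0.38 (adjusted p = 0.00575). On the far side of the tRNA gene next to LOC105156657, the JINGUBANG gene LOC105156658 was called higher, at 0.56 (adjusted p = 0.0290). On one side of LOC105168700, a probable galactinol-sucrose galactosyltransferase gene (LOC105168561) was called lower, at -1.29 (adjusted p = 0.0397). On its other side, the centromere protein X gene LOC105168558 was called higher, at 0.48 (adjusted p = 0.00282). These genes were named after their values had been seen.

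Other genes were taken by product name in 6 lists, 5 named for parts of the vein or its transport and 1 for the PP2 name. A product name does not show in which cells a gene is expressed. Each count of called genes in these lists stands beside 16.5% called higher and 14.1% called lower among all tested genes. Of genes listed for phloem development, 4 of 22 were called higher and 5 lower, and the median of their log2 fold changes was 0.04. The list was drawn by name, so a role in phloem is not given for each gene. SUPPRESSOR OF MAX2 and SMAX1-LIKE genes made up 2 of the higher and 4 of the lower. Those lower ones were named SUPPRESSOR OF MAX2 1 or SMAX1-LIKE 7. Brevis radix genes made up 2 of the higher and 0 of the lower. The members of smallest p went both ways. Brevis radix-like 1 (LOC105172746), named for a regulator of early phloem in Arabidopsis roots, had 12.9, 13.0 and 11.9 CPM in SiCD_B against 7.33, 8.21 and 7.63 CPM in SiCD_A pools, which is 0.71 on the log2 scale (SE 0.08, adjusted p = 0.000436). SMAX1-LIKE 4 genes, of a type that promotes phloem formation in Arabidopsis, rose by 0.58 (LOC105161665, adjusted p = 0.000627) and 0.52 (LOC105173906, adjusted p = 0.000881). SUPPRESSOR OF MAX2 1 (LOC105162868), of the branch that acts in karrikin signalling in Arabidopsis, fell by 0.58 (adjusted p = 0.000761).

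The list also holds factors that act within sieve elements in Arabidopsis: APL, a MYB-type factor needed for phloem identity, and NAC45 and NAC86, which act after it when the nucleus is lost. They were singled out after their values had been seen. Of 5 tested genes with these names, 1 was called lower and 0 higher, with a median of -0.27. NAC45 (LOC105175981) had 4.36, 3.85 and 3.96 CPM in SiCD_B against 5.63, 5.33 and 4.76 CPM in SiCD_A pools, which is -0.37 on the log2 scale (SE 0.11, adjusted p = 0.0356). NAC86 (LOC105157341) had -0.28 (adjusted p = 0.103), APL genes had -0.21 (LOC105175118, adjusted p = 0.0698) and -0.27 (LOC105168094, adjusted p = 0.168), and a barely expressed APL-like gene (LOC105165534) had 0.86 (adjusted p = 0.508).

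Callose is the glucan that closes sieve pores and plasmodesmata. Genes named for its synthesis or binding were called higher for 5 and lower for 3 of 20, with a median of 0.04. No gene for an enzyme that breaks callose down was among these 20. PLASMODESMATA CALLOSE-BINDING PROTEIN genes, whose Arabidopsis products bind callose at the channels between cells, were called higher for 4 and lower for 1 of 10. The higher ones included LOC105156492, which rose by 0.55 (SE 0.06, adjusted p = 0.000307), LOC105171887, by 0.70 (SE 0.09, adjusted p = 0.000997), and LOC105168838, by 0.71 (SE 0.10, adjusted p = 0.00166). The lower one, LOC105160035, had -0.28 (adjusted p = 0.0121) and was named after its values were seen. Callose synthase genes were called higher for 1 and lower for 2 of 10. Callose synthase 1 (LOC105168545) fell by 0.36 (SE 0.05, adjusted p = 0.00145). The putative callose synthase 8 (LOC105165840), also named after its values were seen, rose by 0.22 (adjusted p = 0.00983). Callose synthase 7 (LOC105165547), named for the Arabidopsis enzyme of sieve plates and chosen after its values were seen, had 60.5, 54.1 and 54.6 CPM in SiCD_B against 69.3, 66.2 and 67.0 CPM in SiCD_A pools. On the log2 scale it fell by 0.26 (SE 0.05, adjusted p = 0.00647).

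For loading and transport, 6 of 32 genes were called higher and 7 lower, and the median was -0.0010. SODIUM POTASSIUM ROOT DEFECTIVE 2 (LOC105169203) rose by 1.68 (SE 0.13, adjusted p = 0.000127). FT-interacting protein 1 genes, named for the Arabidopsis protein that helps the florigen into sieve elements, went both ways, with LOC105163478 up by 1.30 (adjusted p = 0.000128), LOC105164103 up by 0.68 (adjusted p = 0.000401) and LOC105175573 at -1.16 (adjusted p = 0.000383). Of 4 sucrose transport genes, 1 was called higher and 1 lower, and these were named after their values were seen. SUC2 (LOC105176216), named for the sucrose loader of Arabidopsis companion cells, had 29.99, 24.8 and 27.1 CPM in SiCD_B and 27.1, 24.4 and 24.2 CPM in SiCD_A pools. These overlapped, at 0.11 on the log2 scale (SE 0.08, adjusted p = 0.307). SUC4 (LOC105159061) rose by 0.42 (adjusted p = 0.0169). SUC2-like (LOC105176204) was called lower (adjusted p = 0.00765) at a very low level, with 0.0129, 0.0359 and 0.0131 CPM in SiCD_B and 0.155, 0.178 and 0.249 CPM in SiCD_A pools. The potassium channel AKT2/3 (LOC105169127), also added after its values were seen, had -0.21 (adjusted p = 0.127).

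Of 7 genes for enzymes that make stachyose, a sugar of the raffinose type, or galactinol, its galactose donor, 3 were called lower and 0 higher. Stachyose synthase LOC105163029 had 91.0, 59.2 and 77.0 CPM in SiCD_B against 279, 296 and 260 CPM in SiCD_A pools, which is -1.88 on the log2 scale (SE 0.16, adjusted p = 0.000742), and was named after its values were seen. Raffinose-type sugars are carried in the phloem of some plant families and also accumulate under stress. The summed level of the phloem lists without the members was 1250 to 1331 CPM in SiCD_B and 1503 to 1619 CPM in SiCD_A pools, of which LOC105163029 supplied a mean of 75.7 CPM in SiCD_B and 278 CPM in SiCD_A. The galactinol synthases LOC105156611 (24.2 CPM in SiCD_B and 88.9 CPM in SiCD_A) and LOC105168266 (61.6 CPM in SiCD_B and 156 CPM in SiCD_A) were the others of these 7 genes called lower. Without these 3 genes, left out after their values were seen, the sum turned round, to 1093 to 1135 CPM in SiCD_B and 1026 to 1080 CPM in SiCD_A pools. The direction of the phloem sum therefore depended on whether these 3 genes were counted. Genes that were higher in SiCD_B were kept in both sums, so the sum without the 3 genes is a description alone.

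F-box proteins PP2-A and PP2-B, which share the PP2 name and belong to a class that marks other proteins for breakdown, were called higher for 2 and lower for 1 of 9, with a median of 0.02. The higher ones numbered 1 when SiCD_A pool 1, SiCD_A pool 2 or SiCD_B pool 1 was left out. PP2-A13 genes rose by 0.58 (LOC105172040, SE 0.09, adjusted p = 0.00197) and 1.00 (LOC105173193, adjusted p = 0.0224). PP2-B15 (LOC105172401) had 0.0258, 0.0479 and 0 CPM in SiCD_B pools, near the limit that a count of 0 allows, against 0.816, 0.658 and 1.62 CPM in SiCD_A pools, and was called lower (adjusted p = 0.000746).

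Xylem genes, of the water-conducting tissue beside the phloem, were called higher for 3 and lower for 2 of 20, with a median of 0.09. WALLS ARE THIN 1 (LOC105166098), named for a vacuolar transporter of fibre cells, rose by 0.75 (SE 0.07, adjusted p = 0.000218), and IRREGULAR XYLEM 15-like (LOC105169520), of xylan synthesis, by 0.57 (SE 0.10, adjusted p = 0.00354). Cellulose synthase subunits 4 (LOC105163451) and 7 (LOC105166326), of secondary walls, fell by 0.28 (SE 0.07, adjusted p = 0.0195) and 0.21 (SE 0.06, adjusted p = 0.0318). Neither fall was called without SiCD_A pool 1 or without SiCD_B pool 2, where 0 xylem genes were lower. With library size as the only scaling, or without SiCD_B pool 3, 1 was lower.

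Genes of the procambium, the cells from which veins form, were called higher for 6 and lower for 0 of 10, with a median of 0.28. Among all tested genes, 16.5% were called higher and 14.1% lower. Auxin response factor 5 genes, named for the factor that starts veins in Arabidopsis, rose by 1.24 (LOC105159332, SE 0.12, adjusted p = 0.000606) and 1.02 (LOC105166017, SE 0.09, adjusted p = 0.000220). ATHB-15 genes, homeobox factors of vascular patterning, rose by 0.44 (LOC105164733, adjusted p = 0.000871) and 0.36 (LOC105157678, adjusted p = 0.00123). Of the list's 3 genes for the receptor kinase TDR, 0 were called. The SEO genes and the procambium genes thus had medians on opposite sides of 0, at -0.35 and 0.28. The difference between the lists was not tested. A median above 0 was not particular to the procambium list, with 0.53 for markers of dividing cells and 0.34 for those of epidermis. Guard cell and mesophyll markers had -0.75 and -0.32.

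**Figure D5:**
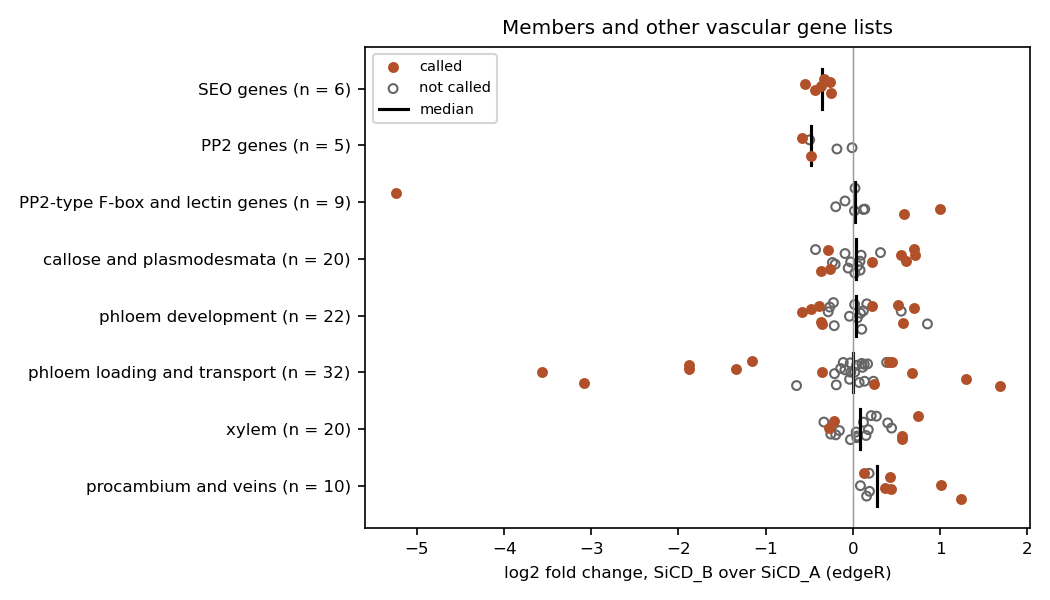
Log2 fold change, SiCD_B over SiCD_A, of the members and of 6 other lists taken by product name. Filled points were called, open points were not, and the black bar is the median of each row. The SEO genes lie between -0.54 and -0.25, the procambium list has 0 genes called lower, and the other 5 lists have called genes on both sides of 0. The point farthest to the left is PP2-B15 (LOC105172401), a fitted value that depends on the prior count because its SiCD_B pools are near 0.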

How the data were processed

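Bulk RNA-seq of young sesame leaves was analysed in 6 pools, 3 per allele group. The authors deposited raw counts, whole numbers of reads for each of 25762 genes. Tools named in the submitters' processing notes are DESeq2, HTSeq, SAMtools, STAR, Trim Galore and FastQC 0.11.4. The genome build is not given in the sources used here. Per the labels' protocols, the TruSeq RNA kit version 2 was used; that kit does not mark strand. Product names, coding segments, log2 fold changes and adjusted p-values were read from the authors' deposited table, per the file headers.

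The test was that of edgeR 4.0.16 under R 4.3.3 (quasi-likelihood, robust fit, TMM factors, filterByExpr), SiCD_B minus SiCD_A, with Benjamini-Hochberg adjustment over 21009 genes and a threshold of 0.05. The SE is the log2 fold change divided by the square root of F. CPM are counts per 1000000 reads with TMM factors. The fit was tested on simulated data with known answers. The simulated pools were drawn independently, so this could not check the effect of plants shared between pools. Alternatives were other scalings and filters, DESeq2 1.42.0, the pool number as a block, and each pool left out. Within groups, pools differed by more than counting noise (5.24 to 29.7 chi-square units for each degree of freedom), so all 6 were kept.

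Linkage groups, neighbours and overlaps came from the RefSeq table of S_indicum_v1.0, which held all 11 members; printed positions are coding segments as deposited, with no build named. Members, lists and the rule for named genes were chosen with earlier results of these data known. All SEO and PP2 members are given in full, and of each list up to 4 called genes of smallest p; others are marked. A count of 0 allows 3 counts, 0.0359 to 0.0533 CPM, for counting error only. Levels were not compared between genes per length. Figures were drawn with matplotlib 3.10.9.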

Additional observations from a re-analysis of the deposited data

How the results depend on the processing

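The direction of 10 of the 11 members was the same under every alternative run. LOC105177842, near 0 in all of them, turned to 0.037 with library size alone and ranged from -0.12 to 0.058 when pools were left out, and was above 0 when SiCD_A pool 1 was left out (0.0021) and likewise for SiCD_B pool 2 (0.058) and pool 3 (0.028). With library size alone, 67.5% of called genes were higher, against 53.8%, and the calls of LOC105156782 (-0.20) and LOC105168700 (-0.22) were lost. The other scalings, both filters and DESeq2's test changed no member's call.

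Leaving out 1 pool moved the SEO genes called lower to between 3 and 6 and the PP2 genes to between 1 and 2. Calls were lost at LOC105156782 without every pool except SiCD_B pool 1 (-0.29 to -0.18). LOC105168700 had -0.34 to -0.20 and lost its call in 4 of 6, LOC105175867 had -0.64 to -0.37 and lost it in 4 of 6, and LOC105178604 had -0.58 to -0.36 and lost it in 3 of 6. Higher F-box PP2 genes numbered 1 to 2 and lower xylem genes 0 to 2. With a minimum of 1 CPM in 3 pools, 0 F-box PP2 genes were lower. With library size alone, 1 xylem gene was lower.

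Pools with the same number share no stated source, and their deviations correlated at 0.15, 0.08 and 0.20, so the numbers were not taken as pairs. With the pool number as a block, 5 xylem genes were lower and the calls of the members did not change. Each other count stayed within 1.5 times under every alternative run. Scaling levels by coding length was not run, as no coding lengths were used. The cause of these changes was not tested.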
